A study of Mus musculus with 6 samples.

Results

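The genes described here encode the glutathione, thioredoxin and peroxide defence of the cell. They were taken as all probe sets annotated with a single gene symbol that starts with Gst, Mgst, Gpx, Prdx, Txn or Srxn, or that is Gclc, Gclm, Gss, Gsr, Cat, Sod1, Sod2 or Sod3. The rule itself used no measured value, but it was chosen with earlier results of these data known. It found 62 genes of the 18193 that the array measures with such a probe set, on 118 of the array's 45101 probe sets. Another 6 probe sets that carry a member's symbol beside other symbols were left out of the members, those of Prdx1 among them. Prdx5 and Prdx6 were not analysed here.

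The samples were resident macrophages of the peritoneal cavity, recovered by lavage and sorted as cells with high CD11b and low or no MHC class II. One group came from mice with a conditional (floxed) deletion of Gata6, a transcription factor (Gata6-KO, n = 3), and the other from wild type mice (Gata6-WT, n = 3), all aged 7 weeks. Each sample was a pool of 2 to 3 mice measured on 1 Affymetrix array, so a value is the average over the animals of a pool. The Cre line, the cells it acts in, the deleted part of Gata6 and each pool's sex are not given here.

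Glutathione is a small thiol peptide made by glutamate-cysteine ligase (the subunits Gclc and Gclm) and glutathione synthetase (Gss). Peroxidases oxidise it while they reduce peroxides, glutathione reductase (Gsr) restores it with NADPH, and glutathione transferases join it to reactive compounds. The thioredoxin system runs in parallel, with thioredoxin reductases passing electrons from NADPH to thioredoxins and from there to peroxiredoxins, while superoxide dismutases and catalase remove superoxide and hydrogen peroxide directly. Macrophages make these oxidants themselves when they engulf particles, and the transcription factor NRF2 is the best known inducer of many of the enzymes.

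The arrays had median signals of 79.7 to 88.5. Of the 3 Gata6 probe sets, 2 were lower in Gata6-KO (log2 difference -0.88, adjusted p = 0.011, and -1.15, adjusted p = 0.0043) and the third did not differ detectably (-0.01, adjusted p = 0.98); which of them lie in the deleted part is not known here. The replicates numbered 1 in both genotypes had low Xist and high Eif2s3y (male type), and the other 4 arrays had the reverse (female type), so results are also given within each type. The listed genes of large peritoneal macrophages, the main resident type, were Timd4, Icam2, Selp, Garnl3, Ltbp1 and Gata6 itself. All 6 were lower in Gata6-KO on the brightest probe set of each, with a summed signal of 40016 to 41014 against 101776 to 122980 in Gata6-WT. Gata6 is the deleted gene, so its fall is no separate sign of a change in cell type. The summed signal of 7 general macrophage genes was 165065 to 178218 against 178188 to 216817. These genes did not move together. Adgre1 (log2 difference -1.86), Fcgr1 (-2.80) and Cd68 (-0.41) were lower and Mertk (0.43) was higher. Lyz2 (-0.01), Csf1r (0.06) and Itgam (0.24) did not differ detectably.

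The largest differences among the tested member genes were a 4.0-fold higher signal of Gstp1 in Gata6-KO and a 3.8-fold lower signal of Gpx7. Prdx4, which was lower, had the smallest adjusted p of these genes (0.00034 by limma). By limma, with p-values adjusted over all 27022 tested probe sets and a threshold of 0.05, 15 of the 49 member genes with a tested probe set passed, 3 higher (Gstp1, Sod2 and Txndc16) and 12 lower (Gpx7, Gstt3, Gstm5, Prdx4, Gstk1, Gsr, Sod1, Gstm1, Gsto1, Cat, Mgst1 and Txn1). That is 30.6% of the member genes, beside 13.1% of all 12511 genes tested (5.61% higher and 7.46% lower). Where several probe sets of a gene were tested, the brightest on average stands for it. Over single probe sets, 4 were higher and 17 lower of 96 tested, or 21.9%, beside 10.8% of all probe sets tested (5.12% higher and 5.67% lower). The tested member probe sets had a median signal of 573, against 272 over all tested probe sets. The median log2 difference was -0.19 over the member genes and -0.04 over all genes, and -0.11 and -0.01 over the probe sets. The signals of the groups did not overlap in 42 of the 96 member probe sets, or 43.8%, beside 31% of all probe sets.

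The count of lower members fell when any 1 array was left out. The count of lower probe sets over the whole array fell too, from 1532 to between 939 and 1236. Loss of precision with fewer arrays and dependence on a particular array were not told apart. The 12 lower genes became 6 when Gata6-KO replicate 1 was omitted, 7 for Gata6-KO replicate 2, 6 for Gata6-WT replicate 3 and 8 for each of the other 3 arrays. The 17 lower probe sets became 8, 11, 10 and 8 without Gata6-KO replicates 1 and 2 and Gata6-WT replicates 2 and 3. The 7 genes Gpx7, Gstk1, Gstm5, Gstp1, Gstt3, Prdx4 and Sod1 passed the threshold of 0.05 in all 19 refits run for single genes. These refits do not include the stricter thresholds. Sod1 does not reach 2-fold on its brightest probe set (log2 difference -0.95), but does on the next brightest (-1.16). Another 6, Cat, Gsr, Gstm1, Gsto1, Mgst1 and Txn1, passed in only 1 of the 6 fits that left out 1 array. In these bulk samples fewer cells of a type and less RNA per cell cannot be told apart.

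**Figure D1:**
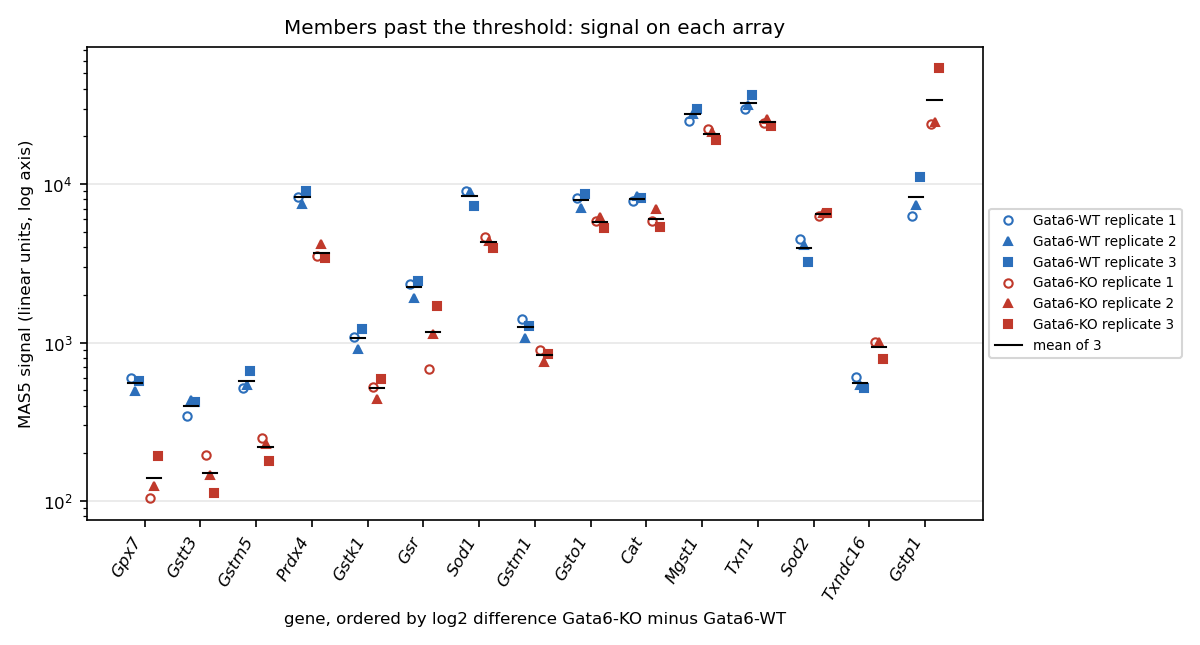
Signal on each array (linear MAS5 units, log axis) of the 15 member genes past the threshold, ordered by their log2 difference. Symbols are the 3 replicates of each genotype and bars are group means. The Gata6-KO and Gata6-WT symbols do not overlap for any of the 15 genes, and within Gata6-KO the widest spreads on this axis are those of Gsr (684 to 1705) and Gstp1 (24089 to 53684).

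The sequence before the gene start was read for members with a RefSeq promoter entry, which 55 of the 62 had (mouse build GRCm38.p6). The search covered the 250 bases before the start for the antioxidant response element core (TGACNNNGC or, on the other strand, GCNNNGTCA), to which NRF2 with a small MAF protein can bind, and for the GATA core (AGATAA or TTATCT). The AP-1-type element TGAGTCA (or TGACTCA) was added after the Gstp1 sequence had been seen. It overlapped the antioxidant core in 128 of all 32851 promoters. The promoters of Gstp1 (chr19:4037913-4038162, minus strand), Gstm5 (chr3:107895604-107895853, plus strand), Sod1 (chr16:90220512-90220761, plus strand) and Gstk1 (chr6:42245685-42245934, plus strand) are shown because these genes passed in all 19 of those refits and hold a match. Capitals mark the matches, and each sequence ends at the base before the start.
Gstp1: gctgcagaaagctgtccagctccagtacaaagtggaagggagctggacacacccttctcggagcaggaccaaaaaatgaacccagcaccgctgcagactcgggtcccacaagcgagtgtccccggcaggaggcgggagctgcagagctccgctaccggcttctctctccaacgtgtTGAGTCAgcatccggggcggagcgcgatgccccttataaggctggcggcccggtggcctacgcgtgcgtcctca
Gstm5: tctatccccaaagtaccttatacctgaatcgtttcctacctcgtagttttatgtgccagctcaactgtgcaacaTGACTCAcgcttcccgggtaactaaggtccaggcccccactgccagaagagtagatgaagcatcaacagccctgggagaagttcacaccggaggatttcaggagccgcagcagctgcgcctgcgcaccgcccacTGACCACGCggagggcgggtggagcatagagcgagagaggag
Sod1: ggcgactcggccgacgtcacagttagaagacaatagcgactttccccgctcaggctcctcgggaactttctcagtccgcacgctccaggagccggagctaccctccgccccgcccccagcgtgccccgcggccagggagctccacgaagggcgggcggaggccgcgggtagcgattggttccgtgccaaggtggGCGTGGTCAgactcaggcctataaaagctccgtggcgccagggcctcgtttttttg
Gstk1: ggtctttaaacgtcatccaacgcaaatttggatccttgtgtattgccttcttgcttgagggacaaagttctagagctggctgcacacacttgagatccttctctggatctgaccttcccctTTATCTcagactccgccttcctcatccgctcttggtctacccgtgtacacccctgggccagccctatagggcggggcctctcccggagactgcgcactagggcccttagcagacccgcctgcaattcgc
The Gstp1 window held TGAGTCA beginning 74 bases before the start and neither of the other motifs as spelled above. Wider spellings of the antioxidant core were not searched, so an element of that kind in this window is not excluded. Gstm5 held TGACTCA at 176 and the antioxidant core TGACCACGC at 42 bases before the start. Sod1 held GCGTGGTCA at 56 bases and Gstk1 the GATA core TTATCT at 129 bases before the start. The antioxidant core was in 10 of 74 member promoters (13.5%) and in 10.2% of all promoters. The GATA core was in 4 of 74 (5.41%) and in 9.99% of all, and TGAGTCA in 4 of 74 (5.41%) and in 4.46% of all. Among the 17 promoters of members past the threshold, 3 held the antioxidant core (Gstm5, Sod1 and Mgst1), 1 the GATA core (Gstk1) and 2 TGAGTCA (Gstp1 and Gstm5). A match is a run of letters in this window and no evidence of binding.

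Superoxide dismutases and catalase split by enzyme. Sod1, the cytosolic copper-zinc dismutase, had signals of 4651, 4373 and 3954 in Gata6-KO replicates 1 to 3 and 9020, 8861 and 7273 in Gata6-WT. Every Gata6-KO array was below every Gata6-WT array, and the log2 difference was -0.95 ± 0.12 (SE, n = 3 per group, adjusted p = 0.0011). Its other bright probe set gave the same direction, with 3076, 3589 and 2779 against 6940, 7591 and 6553 (log2 difference -1.16, adjusted p = 0.00037). Sod1 was also the same size in both types of array, -0.95 in each. The remaining pair of tested Sod1 probe sets was dim and did not pass (-0.16, adjusted p = 0.66, and -0.38, adjusted p = 0.48).

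Sod2, the manganese dismutase of mitochondria, changed the other way. Its signals were 6291, 6535 and 6585 in Gata6-KO and 4487, 4135 and 3233 in Gata6-WT, so the groups lay apart with the Gata6-KO arrays close together. The log2 difference was 0.72 ± 0.13 (adjusted p = 0.0074), and the next brightest probe set gave 0.70 (adjusted p = 0.0023). The dimmer Sod2 probe sets did not pass. One had 0.22 with overlapping groups (adjusted p = 0.61), and the dimmest had 72.5, 83.6 and 72.5 against 27.3, 46.3 and 56.9. The mean over the probe sets was 0.58 (adjusted p = 0.017). The Sod2 call was kept in each fit without 1 array and was lost only without the mean-variance trend (adjusted p = 0.057; 0.0045 to 0.057 over the variations). Catalase (Cat), the peroxisomal enzyme that splits hydrogen peroxide, had 5808, 7007 and 5337 in Gata6-KO against 7813, 8406 and 8113 in Gata6-WT. The groups were apart but the difference was small, -0.43 ± 0.12 (adjusted p = 0.048), and among the fits without 1 array it passed only without Gata6-KO replicate 2 (log2 difference -0.54 to -0.35). The second Cat probe set had -0.41 (adjusted p = 0.13). Sod3, the extracellular dismutase, had no tested probe set, with signals of 4.85 to 18.4 on its brighter one. Red cells are rich in several of these enzymes. The 4 red cell genes on the array summed to 75.1 to 115 in Gata6-KO and 97.3 to 124 in Gata6-WT, and none of them was bright enough to be tested.

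Among the 5 tested glutathione peroxidases only Gpx7 passed. Gpx7, a peroxidase of the endoplasmic reticulum, had signals of 104, 124 and 191 in Gata6-KO and 597, 498 and 572 in Gata6-WT. No Gata6-KO array came near the lowest Gata6-WT array, and the log2 difference was -1.91 ± 0.22 (adjusted p = 0.00068), at rank 136 of the 933 genes that were lower. It was -1.69 in the female-type arrays and -2.35 in the male-type pair. Gpx1, the abundant cytosolic enzyme, had 52434, 50490 and 49199 against 40360, 47791 and 52128, with overlapping groups and a log2 difference of 0.12 (95% interval -0.14 to 0.39, adjusted p = 0.56). It passed in 1 of the 19 refits, quantile normalization (0.24, adjusted p = 0.042; 0.042 to 0.99 over the variations). Gpx4, which reduces lipid peroxides in membranes, had a log2 difference of -0.05 (95% interval -0.34 to 0.24), and Gpx3, the secreted enzyme, had 0.30 (-0.23 to 0.84). Gpx2 had an interval of -0.87 to 1.19, too wide to place it, and Gpx5, Gpx6 and Gpx8 were below the filter on low signals.

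Among enzymes that make and recycle glutathione, only the reductase passed. Gsr had signals of 684, 1130 and 1705 in Gata6-KO and 2347, 1917 and 2428 in Gata6-WT, with Gata6-KO replicate 1 far below the others. The log2 difference was -1.01 ± 0.27 (adjusted p = 0.045), and it was -0.63 in the female-type arrays and -1.76 in the male-type pair. Among the fits without 1 array it passed only without Gata6-KO replicate 3 (log2 difference -1.32 to -0.67). The second Gsr probe set, with 876, 1162 and 1162 against 1772, 1488 and 1752, gave -0.65 (adjusted p = 0.021). For the synthesis genes the groups lay apart or overlapped without passing. Gclm, the regulatory subunit of the ligase, had 1048, 964 and 1468 against 884, 843 and 876 (log2 difference 0.39, adjusted p = 0.18), and its second probe set had -0.01. Gss had 338, 354 and 312 against 255, 243 and 255 (0.39, adjusted p = 0.16), and Gclc, the catalytic subunit, had -0.11 (adjusted p = 0.72).

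**Figure D2:**
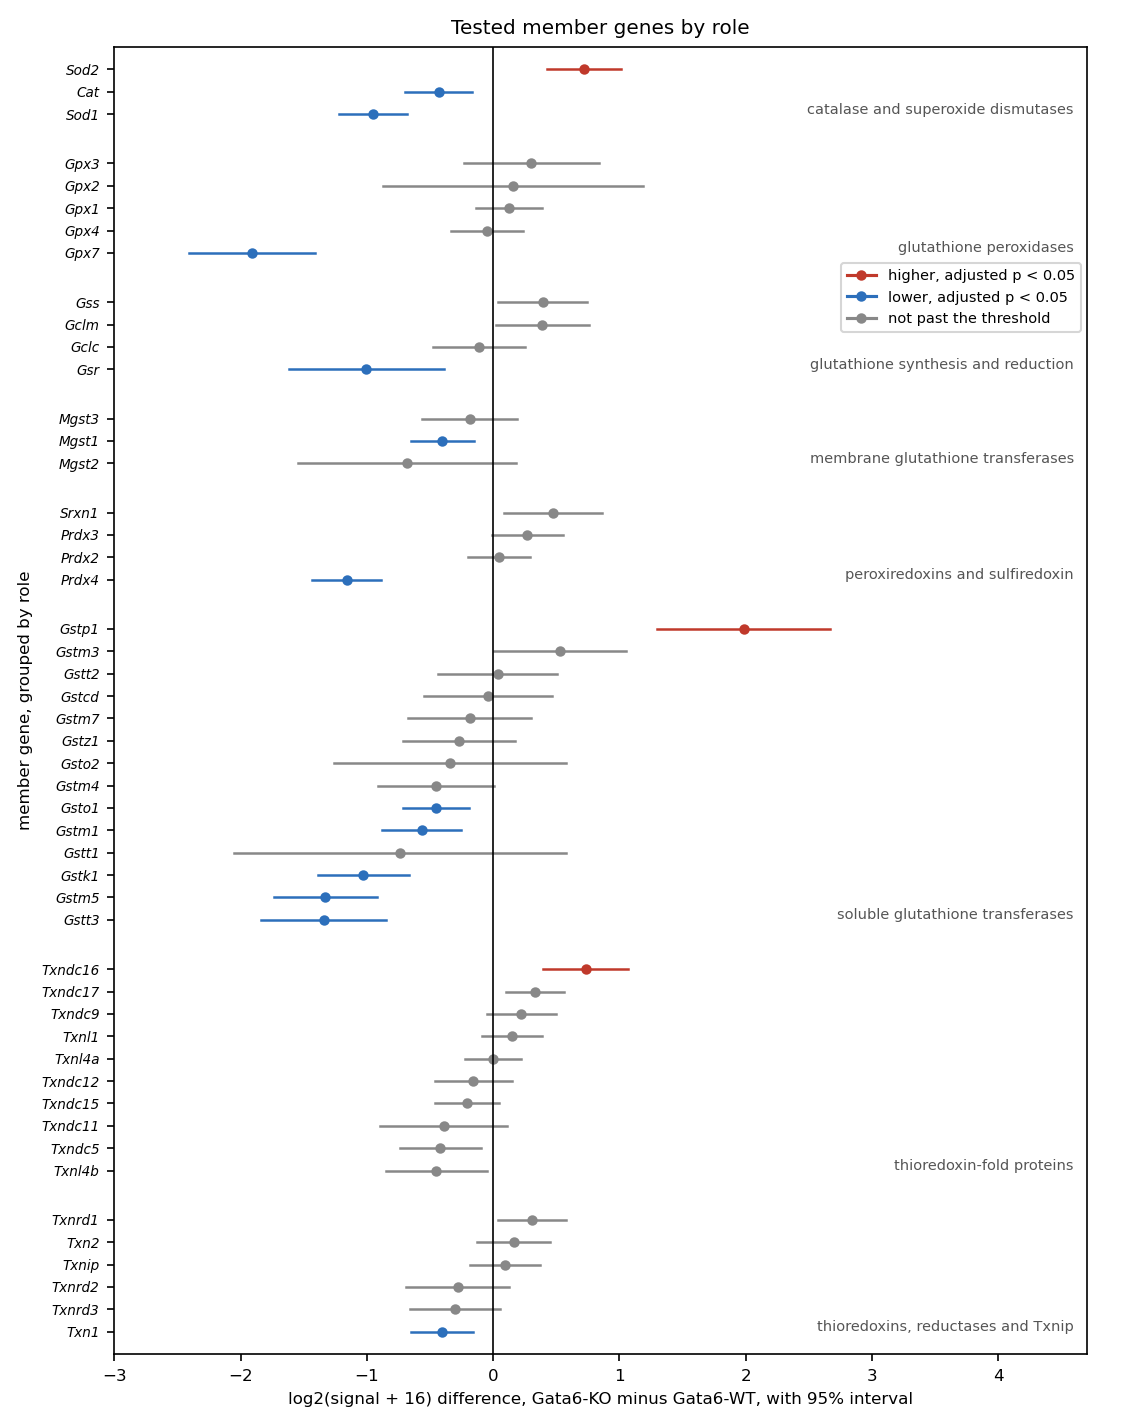
Log2 difference, Gata6-KO minus Gata6-WT, of the 49 tested member genes grouped by role, each point with its 95% interval (3 arrays per group). Red and blue mark genes past the adjusted p threshold of 0.05. Gstp1 and Gpx7 are the farthest from 0, at 1.98 and -1.91, and 34 genes in grey did not pass.

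Soluble glutathione transferases held the largest rise among the members and 5 of the 12 falls, with 6 of 14 tested genes past the threshold. Gstp1, the pi-class transferase, had signals of 24089, 24642 and 53684 in Gata6-KO and 6265, 7387 and 11059 in Gata6-WT. The lowest Gata6-KO array was above the highest Gata6-WT array, and replicate 3 was the highest in both groups. The log2 difference was 1.98 ± 0.31 (adjusted p = 0.0034), at rank 70 of the 702 genes that were higher, and it was 2.01 in the female-type and 1.94 in the male-type arrays. Without any 1 array it stayed between 1.60 and 2.22. The near-identical neighbouring gene Gstp2 had no probe set of its own among those with 1 symbol, so the signal may hold transcripts of both. Gstp3 was below the filter.

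The transferases that were lower belong to several classes. Gstt3, of the theta class, had 195, 146 and 112 in Gata6-KO against 346, 436 and 419 in Gata6-WT, with the groups apart (log2 difference -1.34 ± 0.22, adjusted p = 0.0047). It was -1.62 in the female-type and -0.78 in the male-type arrays. Gstm5, of the mu class, had 249, 228 and 180 against 515, 540 and 666, again with the groups apart (-1.33 ± 0.18, adjusted p = 0.0016). Gstk1, the kappa-class transferase of mitochondria and peroxisomes, had 524, 439 and 585 against 1076, 913 and 1218. Its Gata6-KO arrays were all below its Gata6-WT arrays, by a log2 difference of -1.03 ± 0.16 (adjusted p = 0.0036) that was alike in the female-type (-1.03) and male-type (-1.02) arrays.

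Smaller differences were found for Gstm1 and Gsto1. Gstm1, a mu-class enzyme, had 895, 758 and 846 in Gata6-KO against 1398, 1067 and 1272 in Gata6-WT (log2 difference -0.57 ± 0.14, adjusted p = 0.032). A second Gstm1 probe set gave -0.58 (adjusted p = 0.026) and the other two -0.47 and -0.28, neither past the threshold. Gsto1, the omega-class transferase, had 5827, 6233 and 5313 against 8180, 7024 and 8661 (-0.45 ± 0.12, adjusted p = 0.035), and its second probe set also gave -0.45 (adjusted p = 0.045). The groups did not overlap for either gene. Among the fits without 1 array, both passed only without Gata6-WT replicate 2 (log2 difference -0.67 to -0.48 for Gstm1 and -0.54 to -0.39 for Gsto1). The mu-class genes did not move as a block. Gstm4 had -0.45 (adjusted p = 0.20), Gstm7 had -0.19 (adjusted p = 0.65) and Gstm3 had 0.53 (adjusted p = 0.19), and Gstm2 and Gstm6 were below the filter. These genes are close paralogs, and whether their probe sets share transcripts was not tested. Of the other tested transferases, Gstt1 (-0.74), Gstt2 (0.04), Gsto2 (-0.34), Gstz1 (-0.27) and Gstcd (-0.04) had overlapping groups and did not pass, and Gsta2, Gsta3, Gsta4 and Gstt4 were below the filter.

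Of the 3 membrane-bound transferases only Mgst1 passed. Mgst1, a transferase and peroxidase of the endoplasmic reticulum and outer mitochondrial membrane, had 22164, 21291 and 19003 in Gata6-KO and 24850, 27819 and 29954 in Gata6-WT. The groups were apart by a narrow gap, with a log2 difference of -0.40 ± 0.11 (adjusted p = 0.049). It was -0.52 in the female-type and -0.16 in the male-type arrays, and among the fits without 1 array it passed only without Gata6-WT replicate 1 (-0.47 to -0.34). Mgst3 had -0.19 (adjusted p = 0.54) and Mgst2, which takes part in leukotriene C4 synthesis, -0.68 (95% interval -1.54 to 0.18, adjusted p = 0.31), both with overlapping groups.

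Peroxiredoxins, the thiol peroxidases served by thioredoxin, were represented by Prdx2, Prdx3 and Prdx4. The probe sets of Prdx1, left out because they also carry another symbol, were all higher in Gata6-KO, by log2 differences of 0.16 to 0.69. Only the largest of these passed (adjusted p = 0.0069 by limma). Prdx4, the member of the endoplasmic reticulum, had 3491, 4179 and 3427 in Gata6-KO and 8338, 7467 and 9030 in Gata6-WT. Every Gata6-KO array was below every Gata6-WT array, and the log2 difference was -1.16 ± 0.12 (adjusted p = 0.00034), with -1.11 in the female-type and -1.25 in the male-type arrays. The other 3 Prdx4 probe sets had the same sign but smaller differences that did not pass (-0.49, adjusted p = 0.063, -0.18 and -0.28), and the mean over the probe sets was -0.53 (adjusted p = 0.025). Prdx2, a cytosolic member, differed between its probe sets. The brighter one had 4804, 5862 and 5525 against 4981, 5295 and 5329 (0.05, adjusted p = 0.83). The dimmer one had 141, 72.6 and 130 against 374, 365 and 240, with the groups apart (-1.41, adjusted p = 0.011). Prdx3, the mitochondrial member, had 3963, 4423 and 4251 against 3539, 3003 and 3981, overlapping by 1 array pair (0.27, adjusted p = 0.21). Srxn1, sulfiredoxin, which repairs over-oxidised peroxiredoxins, had 488, 447 and 613 against 414, 323 and 360. Its groups were apart with Gata6-KO higher, but the difference did not pass (0.48, adjusted p = 0.12).

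Thioredoxins and their reductases showed 1 change among 6 genes. Txn1, the cytosolic thioredoxin, had 24426, 25894 and 23307 in Gata6-KO against 29603, 31602 and 36345 in Gata6-WT, with the groups apart (log2 difference -0.40 ± 0.11, adjusted p = 0.046). Its second, dim probe set had 0.33 (adjusted p = 0.55), the mean of the probe sets gave -0.03 (adjusted p = 0.93; 0.026 to 0.93 over the variations), and among the fits without 1 array Txn1 passed only without Gata6-WT replicate 1 (-0.47 to -0.32). Txnrd1, the cytosolic reductase, had 1181, 1215 and 1350 against 1046, 947 and 1017. All its Gata6-KO arrays were higher, but the difference of 0.31 did not pass (adjusted p = 0.14). Txnrd2, the mitochondrial reductase, had -0.28 (adjusted p = 0.38), Txnrd3 -0.30 (adjusted p = 0.28) and Txn2, the mitochondrial thioredoxin, 0.16 (adjusted p = 0.47). Txnip, which binds and inhibits thioredoxin, had 0.09 (adjusted p = 0.69) on its brighter probe set and 0.40 (adjusted p = 0.098) on the other.

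In the group of proteins with a thioredoxin-type domain, 1 of 10 tested genes passed. Txndc16, a protein of the endoplasmic reticulum, had 1013, 1013 and 784 in Gata6-KO against 609, 536 and 516 in Gata6-WT, with all Gata6-KO arrays higher (log2 difference 0.74 ± 0.15, adjusted p = 0.014). It missed the threshold when Gata6-KO replicate 1 or 2, or Gata6-WT replicate 2, was left out, while the difference stayed between 0.67 and 0.86. Txndc5, a disulfide isomerase of the endoplasmic reticulum, had 1872, 1745 and 2465 against 2521, 2741 and 2794 (-0.42, adjusted p = 0.099). Txndc17 had 11791, 13080 and 11600 against 8986, 9935 and 10032 (0.33, adjusted p = 0.070). Both had groups apart and neither passed. The spliceosome protein Txnl4b had -0.45 (adjusted p = 0.15). Txnl4a (0.00), Txnl1 (0.15), Txndc9 (0.22), Txndc11 (-0.39), Txndc12 (-0.16) and Txndc15 (-0.21) had overlapping groups, and Txndc2 and Txndc8 were below the filter.

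**Figure D3:**
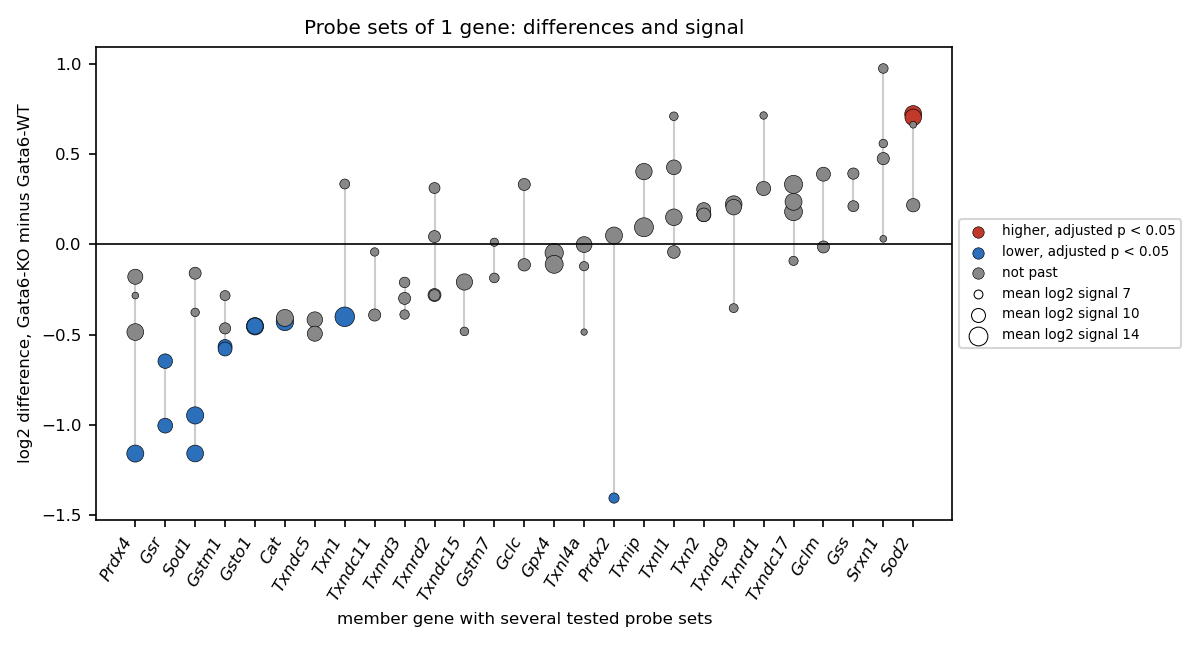
Log2 difference of every tested probe set for the 27 member genes with several, joined by a line per gene. The size of a point is the mean log2 signal and colour marks probe sets past the threshold. For no gene did one probe set pass as higher and another as lower, and Prdx2 and Txn1 are the genes with a probe set past the threshold whose probe sets differ in sign.

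Agreement between probe sets differed among the genes past the threshold. Of the 15 genes, 8 had several tested probe sets, and in 7 of these all had the same sign, Txn1 being the exception. In 5 genes at least 2 probe sets passed (Sod1, Sod2, Gsr, Gstm1 and Gsto1). The other 7 genes, with Gstp1, Gpx7, Gstk1, Gstm5, Gstt3, Mgst1 and Txndc16, rested on 1 tested probe set each.

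All 15 genes had the same direction in the female-type and in the male-type arrays. This had to be so, because the groups do not overlap for any of the 15, and it is no separate check. The male-type comparison is 1 array against 1 and has no replicate check. With replicates 2 and 3 alone, 2 against 2 arrays, 2 member genes were higher and 7 lower at the same threshold. With a term for the array type, Cat, Mgst1 and Txn1 missed the threshold (adjusted p = 0.057, 0.062 and 0.052) and the other 12 passed.

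**Figure D4:**
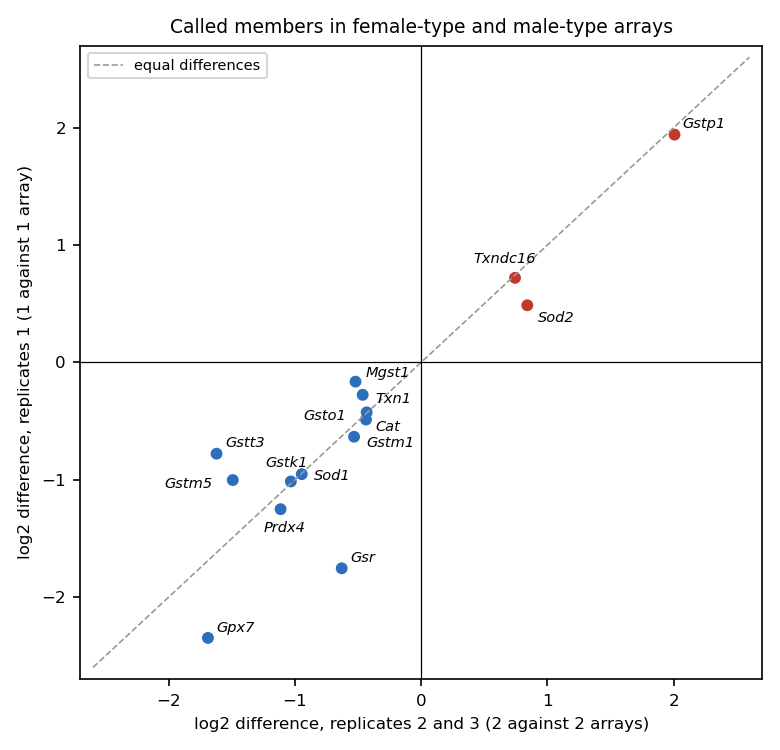
Log2 difference of the 15 member genes past the threshold in the female-type arrays (x axis, replicates 2 and 3) and the male-type arrays (y axis, replicates 1); the dashed line marks equal differences. Every gene lies in the lower left or upper right of the plot, as it must where the groups do not overlap. Gsr, at -0.63 and -1.76, and Gstt3, at -1.62 and -0.78, lie farthest from the line.

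Genes around these enzymes were taken from a list of 67 genes for NRF2 and its partners, other NRF2-linked enzymes, cystine supply, glutaredoxins, NADPH supply, selenoproteins and oxidant production. This list too was chosen with earlier results of these data known. Of its 67 genes, 59 were on the array with a single symbol and 52 were tested. Of the tested genes 11 were higher and 4 lower (28.8%, beside 13.1% of all genes). The median log2 difference over the 52 was 0.12. After scaling each array to a common median the split was 7 higher and 6 lower. The 11 higher genes became 7 without Gata6-KO replicate 1, 2 or 3, and the 4 lower genes became 2 without Gata6-KO replicate 2 or 3 or Gata6-WT replicate 1 or 3.

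Abcc1, a membrane pump that exports glutathione conjugates, showed the largest difference of the list. It had 3555, 4267 and 4786 in Gata6-KO against 1016, 1269 and 1015 in Gata6-WT, with all Gata6-KO arrays far above (log2 difference 1.92 ± 0.15, adjusted p = 6.1e-05). Hmox1, which breaks down haem, had 3815, 4051 and 5607 against 1504, 1283 and 1167, also with the groups well apart (1.74 ± 0.16, adjusted p = 0.00019). Blvrb, a biliverdin reductase, was higher by 0.66 (adjusted p = 0.0040), and Ephx1, the microsomal epoxide hydrolase, by 0.95 (adjusted p = 0.0037). The ferritin heavy chain Fth1 was higher by 0.48 (adjusted p = 0.032), and lost its call without Gata6-KO replicate 1, 2 or 3 or Gata6-WT replicate 2. Abcc1, Blvrb, Ephx1, Hmox1 and Ncf1 passed in all 19 refits at the threshold of 0.05. On the brightest probe set of each gene, only Abcc1 and Hmox1 also reached 2-fold. The dimmer Ncf1 probe sets did as well, with log2 differences of 1.31 (adjusted p = 0.00042) and 1.62 (adjusted p = 0.0049).

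No regulator passed on its brightest probe set, by which each gene was counted. Nfe2l2, which encodes NRF2, had 4393, 5230 and 4713 in Gata6-KO against 3903, 4339 and 4150 in Gata6-WT, apart but by only 0.21 (adjusted p = 0.27). Its inhibitor Keap1 had 0.23 (adjusted p = 0.34) and the repressor Bach1 -0.15 (adjusted p = 0.42), and by limma 0 of the 6 tested regulators and partners passed on that probe set, with 0 at an unadjusted p under 0.05. On dimmer probe sets Keap1 was higher, with 415, 420 and 365 in Gata6-KO against 280, 259 and 254 in Gata6-WT (0.57, adjusted p = 0.047). The small MAF gene Mafg was lower on its dimmer probe set, with 546, 444 and 580 against 760, 841 and 1191 (-0.79, adjusted p = 0.027), and had 0.16 (adjusted p = 0.56) on the brighter one. The groups were apart on both dimmer probe sets. None of the 4 glutaredoxins passed on its brightest probe set by limma either, with 0 at an unadjusted p under 0.05. Nqo1, a widely used NRF2 target, was at -0.01 (adjusted p = 0.99).

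For cystine supply, Slc3a2, the heavy chain of several amino acid exchangers, was higher by 0.74 (adjusted p = 0.022), and lost its call without Gata6-KO replicate 3 or Gata6-WT replicate 1. Its cystine-carrying partner Slc7a11 was below the filter, with 62.1, 64.9 and 70.2 in Gata6-KO and 7.25, 12.7 and 13.4 in Gata6-WT. Ggct, which acts in glutathione breakdown, was lower (log2 difference -0.74, adjusted p = 0.010), but did not pass as the mean of its probe sets (-0.24, adjusted p = 0.62; 0.0057 to 0.62 over the variations). Among NADPH sources, Idh1 was higher by 0.49 (adjusted p = 0.042), passing only without Gata6-WT replicate 2 among the fits without 1 array and not with the term for array type (adjusted p = 0.052; 0.024 to 0.15 over its refits), and Taldo1 of the pentose phosphate pathway was lower (-0.57, adjusted p = 0.024). Taldo1 lost its call without Gata6-KO replicate 2 or 3 or Gata6-WT replicate 1 or 3.

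Selenoproteins went both ways. Selenop, a secreted selenium carrier, was higher by 0.56 (adjusted p = 0.048) and lost its call without Gata6-KO replicate 1, 2 or 3 or Gata6-WT replicate 2. Selenof was higher by 0.43 (adjusted p = 0.018) and lost its call without Gata6-KO replicate 1 or 2 or Gata6-WT replicate 2. Selenow was lower (-0.58, adjusted p = 0.0057), as was Msra, a methionine sulfoxide reductase (-0.48, adjusted p = 0.037), which passed in none of the fits without 1 array. On the side of oxidant production, Ncf1 and Ncf4, cytosolic subunits of the phagocyte NADPH oxidase, were higher by 0.80 (adjusted p = 0.0011; 1.25 as the mean of its probe sets) and 0.73 (adjusted p = 0.0089). The membrane subunits Cybb (-0.51, adjusted p = 0.097) and Cyba (-0.05, adjusted p = 0.86) did not pass. The oxidase-linked GTPase Rac1 did not pass on its brightest probe set (0.15, adjusted p = 0.48) and was higher on a dimmer one (0.46, adjusted p = 0.017).

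**Figure D5:**
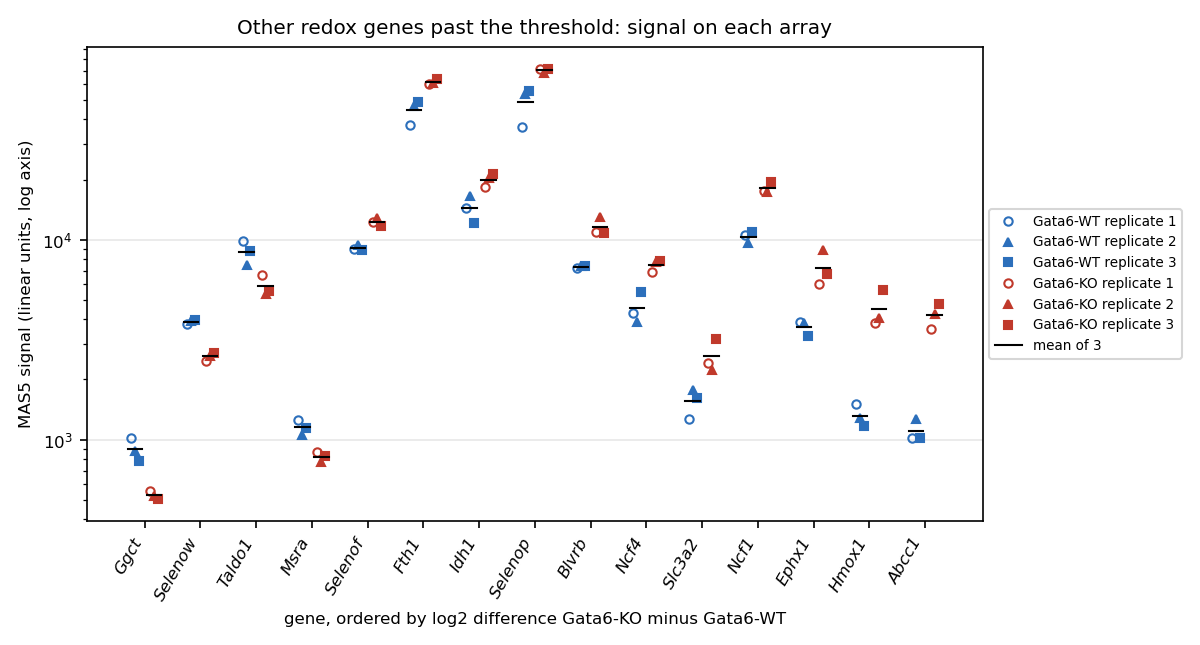
Signal on each array (linear MAS5 units, log axis) of the 15 genes of the surrounding list that passed the threshold, ordered by log2 difference, with symbols for replicates and bars for group means. The 11 genes on the right are higher in Gata6-KO and the 4 on the left are lower, without overlap between the genotypes.

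Some markers of other cells moved with the genotype. The summed signal of 6 neutrophil genes was 558 to 928 in Gata6-KO and 1041 to 1745 in Gata6-WT. Most of it was S100a8, which was lower (664, 293 and 507 against 1002, 847 and 1484). The other neutrophil genes had overlapping groups. Their log2 differences were -0.11 for Ngp and -0.10 for Elane and, below the filter, 0.64 for Mpo, 0.67 for S100a9 and 0.14 for Camp. The summed signal of 6 mast cell genes was 348 to 499 against 531 to 643, and none of these genes passed. By limma, Cpa3 had a log2 difference of -0.78 (adjusted p = 0.051) and Cma1 -1.31 (adjusted p = 0.083), both with the groups apart. The others were below the filter with overlapping groups. Tpsb2 had 1.18, Kit 0.19, Ms4a2 -0.02 and Mcpt4 -0.04. The neutrophil and mast cell sums each had p = 0.1 by the exact two-sided permutation test, the smallest that 3 against 3 arrays allow. Of 5 dendritic cell genes Cd209a was lower (100.8, 92.1 and 158 against 1109, 584 and 281), with sums of 258 to 575 against 487 to 1281. The rest of this list leaned the other way and held no call. Zbtb46 had a log2 difference of 0.24 and, below the filter, Xcr1 had 0.89, Flt3 0.71 and Dpp4 0.49. The part of these cells, and of the lower large peritoneal macrophage genes, in the member results was not tested.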

How the data were processed

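Total RNA of 6 pools was labelled with biotin and hybridised to 1 array each. The authors deposited linear intensity values, 1 signal per probe set, made with MAS5 and affy per the submitters' processing notes, with no version given; the trimmed mean without the top and bottom 2% was 500 on each array. MAS5 subtracts mismatch probes, so low signals are noisy. No genome build is given for the values in the sources used here.

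Signals were converted to log2(signal + 16), which understates changes of low signals. Without the 64 controls, probe sets averaging above the 40th percentile (5.99, a signal of 47.5) entered the fit by limma 3.58.1 under R 4.3.3 (lmFit, eBayes with trend, two-sided, Benjamini-Hochberg over 27022). The number of arrays limits the precision. The labels call the pools biological replicates. In simulated arrays of this comparison with 27022 probe sets, log2 changes of 0.5, 1, 2 and 3 were recovered in 0%, 32%, 60% and 86% of 50 each, and 1 of 90 calls was false. Far fewer probe sets were changed there than the 2916 called in the data, which makes the adjustment stricter. The shares therefore do not carry over to the data, where smaller differences passed (Txn1, -0.40).

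All genes past the threshold are named, with in each role the brightest member and those nearest the threshold; other members may be named with their values. The members and lists were chosen with earlier results of these data known. The variations were other pseudocounts, filters and scalings, no trend, array weights, a replicate block, a term for array type, replicates 2 and 3 only, omission of each array, stricter thresholds and a gene's probe sets averaged. Plots used matplotlib 3.10.9 (Python 3.11.15).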

Additional observations from a re-analysis of the deposited data

How the results depend on the processing

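Over 30 genes past the threshold no variation changed a sign. For the fits on fewer arrays this was fixed in advance, as the groups of these genes do not overlap. Of 854 comparisons of a gene with a variation 718 kept their side of the threshold, 132 lost and 3 gained a call. The one reversal was Prdx2, at -0.68 (adjusted p = 0.013; 0.013 to 1.00 over its variations) with the mean of its probe sets; the dimmer one alone passed. Member probe sets higher and lower, member genes higher and lower, and surrounding genes higher and lower were 4 and 17, 3 and 12, and 11 and 4 (1384 and 1532 over all probe sets). Without the trend they were 2 and 8, 1 and 6, and 5 and 1 (655 and 804). At an adjusted p under 0.01, lower members were 7 probe sets and 6 genes, and surrounding genes 6 and 1 (582 and 669 over all). With at least 2-fold they were 1 and 8, 1 and 6, and 2 and 0 (553 and 703). With replicates 2 and 3 only, lower members were 9 probe sets and 7 genes, and 6 surrounding genes were higher (787 and 867 over all). With no filter lower members were 11 probe sets and 7 genes, and the same with arrays scaled to a common median over the tested probe sets, a setting chosen after seeing the data. Median scaling over all probe sets gave 7 surrounding genes higher, and the filter at the 60th percentile 7 lower. Leaving out 1 array gave 8 to 13 member probe sets and 6 to 8 member genes lower, 7 to 10 surrounding genes higher and 2 to 4 lower, and 822 to 1240 and 939 to 1236 probe sets over all. Where no value above shows it, the cause was not tested. Same-numbered arrays deviated together weakly (correlations 0.128, 0.074 and 0.074), and each correlated best with its own number. Differently numbered arrays had -0.073 to -0.0085. These values do not settle whether the numbers are pairs, and the main fit did not take them as pairs. With the replicate block the counts were 4 and 13, 3 and 9, and 10 and 5 (1500 and 1576 over all), and Gsto1, Mgst1 and Txn1 (adjusted p = 0.056, 0.088 and 0.080) and the surrounding genes Idh1 and Selenop (0.054 and 0.057) missed the threshold. Signals near the filter limit what can be said of the 13 member genes that were not tested.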
